A study of Mus musculus with 14 samples.

Results

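The 74 genes described here encode subunits and assembly factors of complexes I, III, IV and V of the mitochondrial inner membrane, measured in mouse left ventricle. They were chosen by name alone, as every gene row whose symbol begins with Nduf (complex I), Uqcr (complex III), Cox followed by a digit (complex IV) or Atp5 (complex V) and whose signal was detected, at a detection p under 0.05, on at least 3 of the 14 arrays. Such a name was carried by 80 of the 18138 rows, and the 74 that passed stood among 9408 rows that passed in all. Complex I had 34 of these members, complex III had 4, complex IV had 21 and complex V had 15. Detection held on all 14 arrays for 72 members and on 13 arrays for Cox4i2 and Cox6b2. The 6 rows that failed were Ndufs1, a core subunit of complex I, Uqcrfs1, the Rieske iron-sulphur protein of complex III, Uqcrq, Atp5k, Cox7b2 and Cox8c. A failed row describes the signal on these arrays and does not show that the gene is silent in ventricle.

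Complex I takes electrons from NADH and passes them to ubiquinone, complex III passes them on to cytochrome c, and complex IV hands them to oxygen. Complexes I, III and IV pump protons out of the matrix as they work, and complex V, the ATP synthase, lets the protons back in to make ATP. Each complex has a conserved core that carries out the chemistry and many small accessory subunits around it, and the heart, which burns mainly fatty acids, is among the tissues richest in all of them.

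Some symbols are older names. Uqcr is now Uqcr11, Atp5f1 is Atp5pb, Atp5s is Dmac2l and Atp5sl is Dmac2, and Dmac2 is now known as an assembly factor of complex I. Cox4nb is now Emc8, a subunit of a protein-insertion complex of the endoplasmic reticulum, so it met the naming rule without belonging to complex IV. Ndufa4 was counted with complex I by its name, although its product is now placed in complex IV.

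The arrays came from male mice of the substrains C57Bl/6N and C57Bl/6J, each with 4 arrays after 48 h of angiotensin II from a pump under the skin and 3 arrays after a sham operation. Angiotensin II, abbreviated AngII, is a peptide hormone that constricts vessels and puts pressure load on the heart. A dose of 500 ng/kg is labelled per minute in one place and per hour in another, and which holds was not settled here. The labels give no age and name no allele that differs between the substrains. They do not tell whether every array had a mouse of its own, and the p-values cover only how these samples spread. Nnt, a mitochondrial transhydrogenase known to carry a deletion in C57Bl/6J, was not detected on any array and could not check the substrain labels.

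Values are log2 signal after background correction and quantile normalisation, changes are AngII minus sham on that scale, and an error after ± is a standard error unless SD is written. A gene is called higher or lower where limma's moderated test gave a Benjamini-Hochberg adjusted p under 0.05 over all 9408 rows. The share of rows detected ran from 46.4% to 49.3% over the arrays. All 11 cardiomyocyte markers in the table passed the detection filter, with a summed normalised signal of 218157 to 239364 on C57Bl/6N AngII arrays, 241138 to 277277 on C57Bl/6N sham arrays, 234380 to 252448 on C57Bl/6J AngII arrays and 230968 to 248336 on C57Bl/6J sham arrays.

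The array labelled C57Bl/6N sham 1 stood apart from the other sham arrays in many of these genes. On it, 54 of the 74 members were lower than the mean of C57Bl/6N sham 2 and 3, and 7 (Cox7b, Atp5e, Ndufa3, Ndufb4, Cox4i2, Ndufb2 and Cox8b) were lower by more than 1 on the log2 scale. The shift was in the small accessory and structural subunits. Set against the mean of the 6 sham arrays, the median of the 26 accessory subunits of complex I was -0.51 on sham 1, against 0.10 and 0.08 on sham 2 and 3. The 13 structural subunits of complex IV had medians of -0.62 on sham 1 and 0.04 and 0.12 on the other two. The 52 cytosolic ribosomal proteins, which are no members, had -0.44, 0.14 and 0.08 in the same order. The 6 core subunits of complex I had 0.01, 0.00 and -0.02, and so did not share the shift by their median. Other members went up on sham 1, such as the core subunit Ndufv1, 0.33 above the mean of sham 2 and 3. Sham 1 was the highest of the 3 for 16 members, among them 8 of the 9 called lower below. Medians on sham 1 were also 0.24 for the TCA cycle, 0.24 for fatty acid oxidation and 0.19 for cardiomyocyte markers. Markers of atrial cardiomyocytes moved with it. The median of Myl7, Sln and Myl4 was -1.79 on sham 1 and 0.90 and 0.18 on sham 2 and 3. Myl7, an atrial myosin light chain, read 8.77 on sham 1 and 11.45 and 10.73 on the others, and Sln, an inhibitor of the calcium pump in atria, read 8.22 and then 11.59 and 10.70. Their part in the shift was not tested. Counts and named changes that this array moved are given without it as well. Sham 1 was singled out by its low values in these same members, so leaving it out lowers most of their changes through that choice. The shares over all rows were not chosen in that way. Values without sham 1 are therefore a description and add no support for a fall.

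The array C57Bl/6J AngII 1 stood apart over the whole table. On it, 302 rows lay more than 1 on the log2 scale from the mean of the other arrays of their group, against 91 on C57Bl/6N sham 1 and 5 to 73 on the other arrays, but only 1 member, Cox4i2, was among them. Without it the C57Bl/6N changes stay as they are and only the error estimate shared by all groups differs. Then 13 members were called lower and 3 higher in C57Bl/6N, against 12.4% lower, 11.8% higher and 24.2% in either direction over all rows. What set it apart was not tested.

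**Figure D1:**
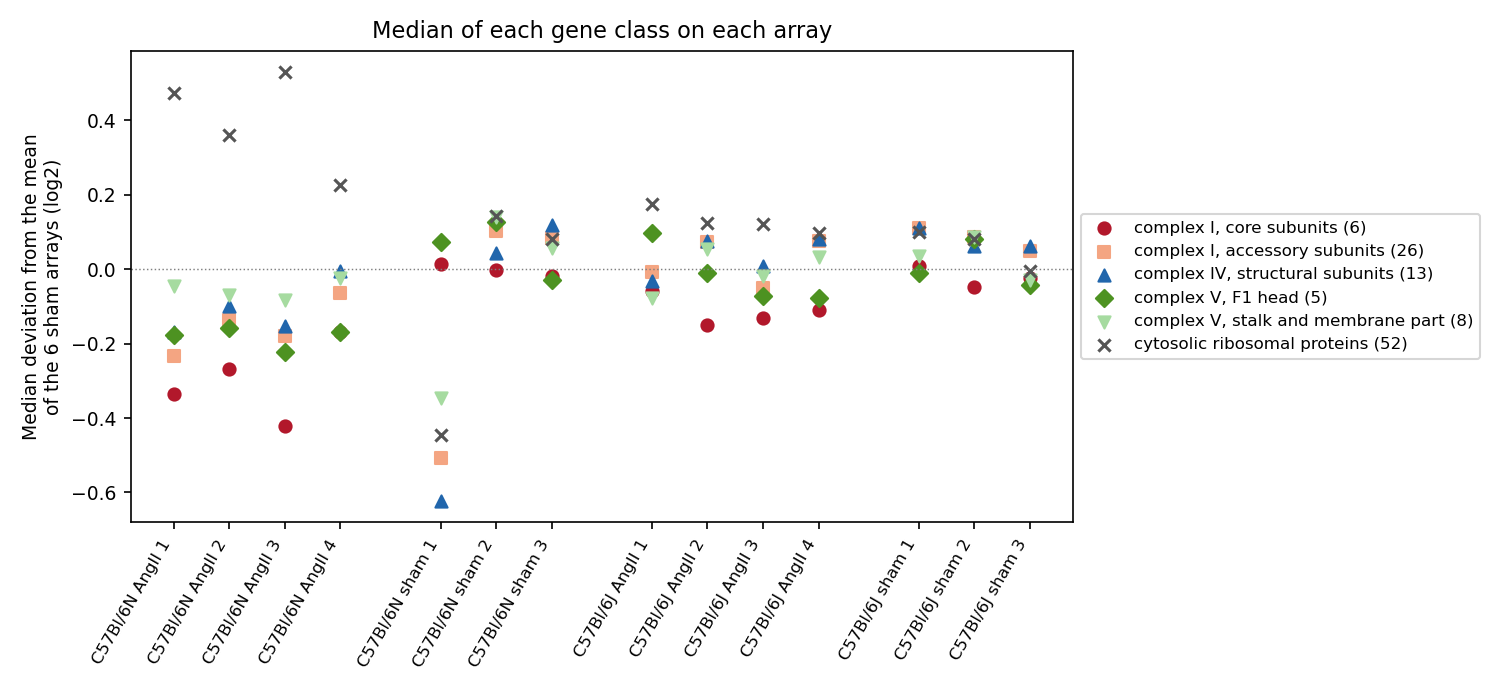
Median of each gene class on each of the 14 arrays, as log2 deviation from the mean of the 6 sham arrays (y axis), with a marker for each class and the number of genes in brackets. C57Bl/6N sham 1 lies far below the other sham arrays for the accessory, structural and stalk subunits and for cytosolic ribosomal proteins, while complex I core subunits are low on the C57Bl/6N AngII arrays (-0.42 to -0.17).

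In C57Bl/6N ventricles, angiotensin II lowered 9 of the 74 members and raised 2. Among the 9 were core and larger accessory subunits of complex I (Ndufs8, Ndufv1, Ndufa10 and Ndufa9), the complex III core protein Uqcrc1, the heme A enzyme Cox10, the supercomplex factor Cox7a2l and Atp5s. The 2 that rose were Cox19 and Cox4nb. Over all rows tested 7.92% were called lower, 9.45% higher and 17.4% in either direction, so the 11 members called, of 74, were close in share to the background. The members had a median change of -0.05, and all rows had -0.04. The highest change was 0.57, that of Cox19, and 46 members were below 0. At an unadjusted p under 0.05 there were 21 members, where 31.4% of all rows reached that mark. In bulk tissue, fewer cardiomyocytes and less of a transcript per cardiomyocyte cannot be told apart.

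Without C57Bl/6N sham 1, 69 of the 74 members were below 0, and their median was -0.22, while that of all rows stayed at -0.04. Calls then stood at 7 lower and 0 higher, against 4.13% lower, 6.12% higher and 10.3% in either direction over all rows. Among the 7 were Ndufs8, Cox10 and Atp5s, called with all arrays too, and the small complex I subunits Ndufa5, Ndufa8 and Ndufb7. By complex, the median was -0.26 without that array and -0.11 with it for complex I, and stood at -0.16 and -0.09 for complex III, at -0.14 and 0.00 for complex IV and at -0.21 and -0.11 for complex V, in the same order. The median of all members was above 0 when another sham array was left out instead. It was 0.03 without C57Bl/6N sham 2, with 34 of 74 below 0, and 0.01 without sham 3, with 35 below 0. Size and direction of the common shift thus depended on which sham arrays were kept.

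**Figure D2:**
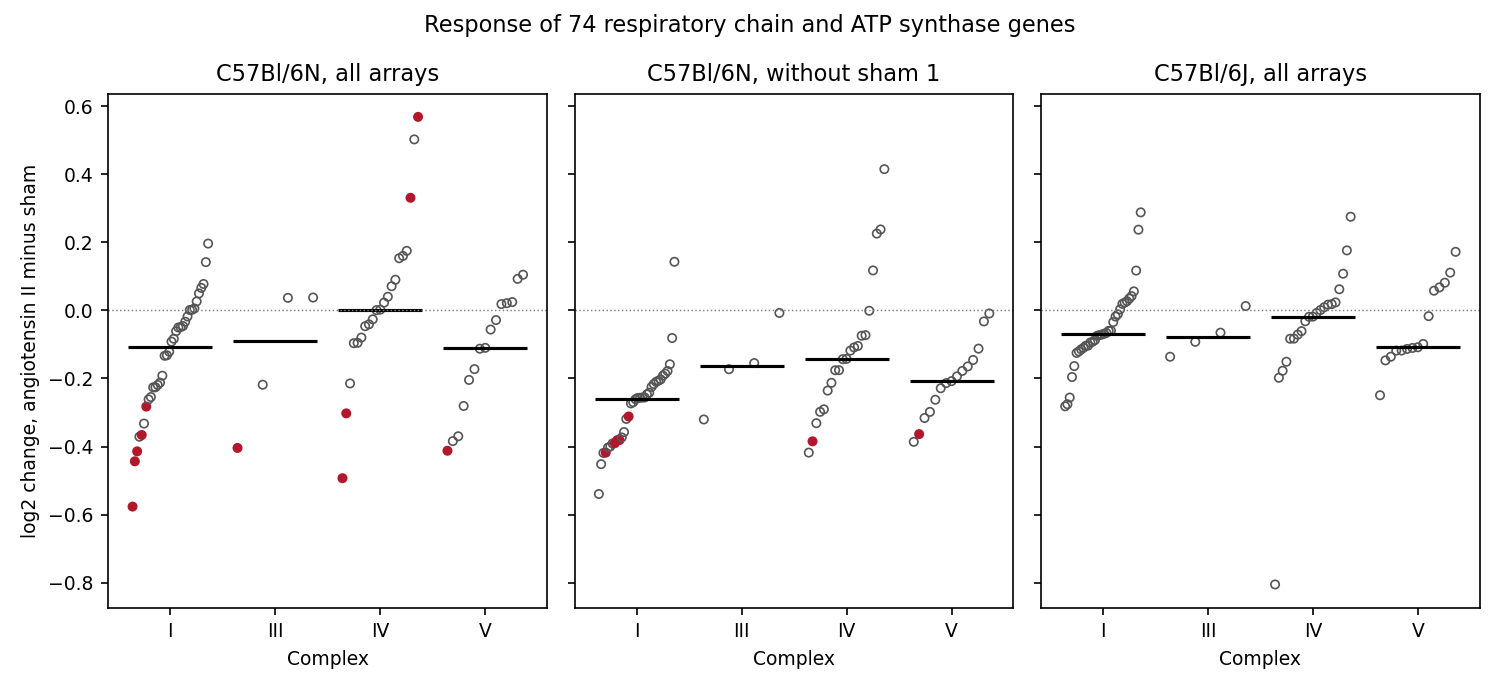
Change under angiotensin II (log2, AngII minus sham, y axis) of each of the 74 members, sorted within its complex (x axis), in C57Bl/6N with all arrays, in C57Bl/6N without sham 1 and in C57Bl/6J. Filled red points passed an adjusted p of 0.05 and bars mark the median of a complex; most points lie below 0 in the middle panel, and no point is filled in C57Bl/6J.

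With all arrays, the 6 core subunits of complex I under the naming rule had the lowest median among the classes with more than 2 members. Without sham 1 they stood at -0.257, beside -0.265 for the accessory subunits. All 6 were below 0 in C57Bl/6N, with a median of -0.31, and 3 of them were called lower, against 7.92% of all rows. Ndufs8 holds iron-sulphur clusters on the route of electrons through the hydrophilic arm. It read 12.92, 12.85, 12.65 and 12.85 on C57Bl/6N AngII arrays and 13.22, 13.29 and 13.18 on sham arrays. The groups did not overlap and the sham arrays lay close together, with sham 1 in their middle. Ndufs8 fell 1.33-fold (-0.41 ± 0.09, adjusted p = 0.00573), and the value without sham 1 was -0.42 (adjusted p = 0.0188). In C57Bl/6J the 4 AngII arrays read 13.14, 13.06, 12.96 and 13.06 and the 3 sham arrays 13.20, 13.16 and 13.14, a change of -0.11 that was not called.

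Ndufv1, which binds NADH and the flavin that first takes its electrons, read 14.20, 14.15, 13.92 and 14.16 under AngII in C57Bl/6N and 14.69, 14.36 and 14.36 in sham. No AngII array reached a sham array, and sham 1 stood highest. The fall was 1.29-fold (-0.37 ± 0.11, adjusted p = 0.0333), and was -0.26 without sham 1, where the call was lost (adjusted p = 0.159). Of the core subunits not called, Ndufs3 had a change of -0.26 (adjusted p = 0.0642), Ndufs7, which carries the last cluster before ubiquinone, one of -0.25 (adjusted p = 0.0843), and Ndufv2 one of -0.23 (adjusted p = 0.115). All 6 core subunits had an unadjusted p under 0.05 in C57Bl/6N, where 31.4% of all rows reached that mark. Without sham 1 these changes were -0.26, -0.26 and -0.22, none of them called, and 6 of 6 core subunits were still below 0. Without C57Bl/6J AngII 1, Ndufs3 was called lower (adjusted p = 0.0466).

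The 26 accessory subunits of complex I surround the core and include the acyl carrier protein Ndufab1. They had a median of -0.05 in C57Bl/6N with 17 below 0, and 2 were called lower, against 7.92% of all rows. Ndufa10, an accessory subunit of the membrane arm with the fold of a nucleoside kinase, read 13.24, 13.37, 13.37 and 13.62 under AngII and 14.02, 13.77 and 13.75 in sham. The groups did not overlap. The fall was 1.36-fold (-0.44 ± 0.11, adjusted p = 0.0119), and without sham 1 it was -0.36 and not called (adjusted p = 0.0619). In C57Bl/6J, Ndufa10 read between 13.50 and 13.76 under AngII and between 13.65 and 13.80 in sham, and these ranges overlapped.

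Ndufa9, an accessory subunit at the junction of the arms, read 14.11, 14.10, 14.06 and 14.22 in C57Bl/6N AngII arrays and 14.47, 14.27 and 14.46 in sham arrays. It was lower on each AngII array than on any sham array, by 1.22-fold on average (-0.28 ± 0.09, adjusted p = 0.0373; -0.25 and adjusted p = 0.12 without sham 1). In C57Bl/6J it read 14.10, 14.25, 14.20 and 14.28 under AngII and 14.36, 14.39 and 14.45 in sham, a change of -0.20 with an unadjusted p of 0.0408 and an adjusted p of 0.299.

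The other accessory subunits of complex I ran from -0.37 for Ndufb11 to 0.20 for Ndufa3. Ndufa3, the highest, shows what sham 1 did: it read 14.30, 14.33, 14.30 and 14.39 under AngII and 13.33, 14.46 and 14.61 in sham. Sham 1 was the lowest of all 14 arrays, and the change was -0.21 without it. Without sham 1 the accessory subunits had a median of -0.26, 25 of 26 were below 0, and Ndufa5 (-0.38, adjusted p = 0.0495), Ndufa8 (-0.31, adjusted p = 0.0496) and Ndufb7 (-0.39, adjusted p = 0.0479) were called, each close to the threshold. Ndufaf1, an assembly factor that works on the membrane arm, changed by -0.33 and was not called (adjusted p = 0.067), and its change was -0.32 without sham 1. Ndufb11 was called lower once C57Bl/6J AngII 1 was left out (adjusted p = 0.0223).

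**Figure D3:**
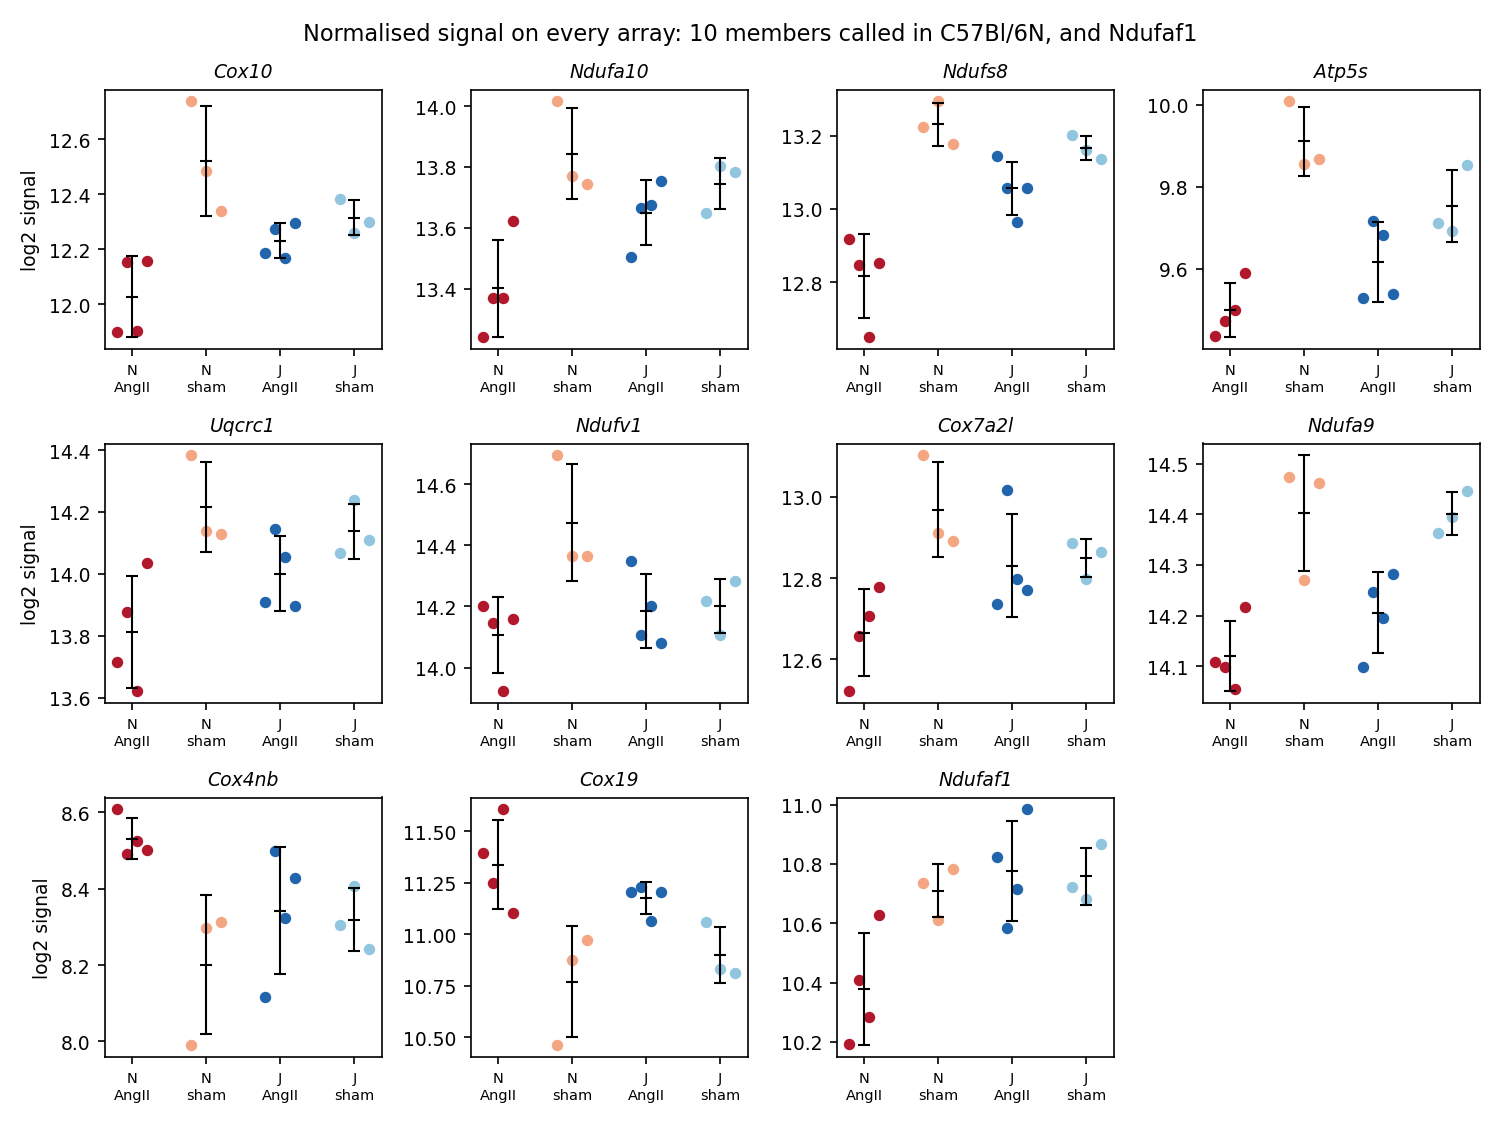
Log2 signal (y axis) on each array for 10 members called in C57Bl/6N and for Ndufaf1, by group (x axis: N is C57Bl/6N, J is C57Bl/6J), with bars for mean and SD (n = 4 AngII, n = 3 sham). In the 8 members shown that fell, all C57Bl/6N AngII points lie under all C57Bl/6N sham points, and sham 1, drawn leftmost in its group, is the highest in 7 of the 8.

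Complex III had 4 members, and its 2 core proteins, which carry no redox group and resemble the peptidases that process mitochondrial proteins, were both below 0. Uqcrc1 read 13.71, 13.88, 13.62 and 14.03 under AngII in C57Bl/6N and 14.38, 14.14 and 14.13 in sham. All AngII values were the lower ones, and Uqcrc1 fell 1.32-fold (-0.40 ± 0.11, adjusted p = 0.0246). Without sham 1 its change was -0.32 and not called (adjusted p = 0.116). Uqcrc2 changed by -0.22 (adjusted p = 0.149), and the small subunits Uqcrh and Uqcr both by 0.04. Without sham 1, Uqcrc2 had -0.17, and the direction turned for Uqcr (-0.15) and for Uqcrh (-0.0075), with none called. In C57Bl/6J, Uqcrc1 read 13.91, 14.15, 14.06 and 13.90 under AngII and 14.07, 14.24 and 14.11 in sham, with overlap and a change of -0.14.

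Complex IV had 2 calls in each direction by the naming rule, on the assembly factors Cox10 and Cox19, on the supercomplex factor Cox7a2l and on Cox4nb, which is not part of it. Over all rows 7.92% were called lower and 9.45% higher. None of its 13 structural subunits was called in C57Bl/6N (limma, 0 of 13; median 0.00). Cox10 attaches the farnesyl tail in heme A synthesis, without which cytochrome c oxidase cannot form. It read 11.90, 12.15, 11.90 and 12.16 under AngII in C57Bl/6N and 12.74, 12.48 and 12.34 in sham. The groups did not overlap. Cox10 fell 1.41-fold (-0.49 ± 0.11, adjusted p = 0.00674), and its change was -0.38 without sham 1 (adjusted p = 0.0355). In C57Bl/6J it read 12.19, 12.28, 12.17 and 12.29 under AngII and 12.38, 12.26 and 12.30 in sham, a change of -0.08.

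Cox19, a protein of the intermembrane space that takes part in copper delivery to complex IV, moved the other way. It read 11.40, 11.25, 11.61 and 11.10 under AngII in C57Bl/6N and 10.46, 10.87 and 10.97 in sham. All AngII arrays were above all sham arrays, and Cox19 rose 1.48-fold (0.57 ± 0.14, adjusted p = 0.0106). Without sham 1, its lowest array, the change was 0.41 and not called (adjusted p = 0.0599). In C57Bl/6J, Cox19 read 11.21, 11.23, 11.06 and 11.21 under AngII and 11.06, 10.83 and 10.81 in sham. There too no AngII value was below a sham value, and the change of 0.28 was not called (adjusted p = 0.35).

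Cox7a2l is classed as a factor that joins complexes III and IV into supercomplexes, and whether it does so in these mice was not measured. It read 12.52, 12.66, 12.71 and 12.78 under AngII in C57Bl/6N and 13.10, 12.91 and 12.89 in sham. It fell 1.23-fold with no overlap (-0.30 ± 0.10, adjusted p = 0.0459), and the change was -0.24 without sham 1 (adjusted p = 0.173). Cox4nb, which is Emc8, read 8.61, 8.49, 8.52 and 8.50 under AngII and 7.99, 8.30 and 8.31 in sham. It rose 1.26-fold (0.33 ± 0.11, adjusted p = 0.0491), and its change was 0.23 without sham 1 (adjusted p = 0.213). The remaining assembly factors, Cox15, which makes heme A, Cox11 and Cox17, which carry copper, and Cox18, which inserts the second catalytic subunit into the membrane, changed by -0.21, -0.08, 0.16 and 0.15 in that order, and none was called. Without sham 1 they stood at -0.14, -0.12, -0.14 and 0.12, so that the direction of Cox17 turned.

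Several complex IV subunits have a heart and muscle form and a form made in most tissues, and neither kind was called in either substrain with all arrays. Cox6a1, the general form, read 12.65, 12.63, 12.75 and 12.46 under AngII in C57Bl/6N and 11.59, 12.34 and 12.42 in sham. All AngII values were above the sham values, and the change was 0.50 ± 0.17 (adjusted p = 0.0561; 0.24 and adjusted p = 0.274 without sham 1). Without C57Bl/6J AngII 1, which leaves the change as it is, Cox6a1 was called higher (adjusted p = 0.0381). In C57Bl/6J, Cox6a1 read between 12.16 and 12.62 under AngII and between 12.37 and 12.64 in sham.

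Its heart form Cox6a2 read between 15.38 and 15.46 under AngII and between 15.28 and 15.41 in sham in C57Bl/6N, a change of 0.04. Cox7a1, the muscle form of another subunit, changed by 0.00 in C57Bl/6N and -0.03 in C57Bl/6J, and the general form Cox7a2 by 0.09 and 0.18. Cox8b, the muscle form of the smallest subunit, changed by 0.00 and -0.07. These values include sham 1, which was the lowest array for Cox6a2, Cox7a1, Cox7a2 and Cox8b, and without it they were 0.00, -0.30, -0.18 and -0.33 in C57Bl/6N. Cox4i1 changed by -0.10 in C57Bl/6N and 0.11 in C57Bl/6J.

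Cox4i2, the form known from lung and from low oxygen, was dim and variable. It read 5.02, 7.53, 7.06 and 7.10 under AngII in C57Bl/6J and 7.81, 7.22 and 7.41 in sham, with C57Bl/6J AngII 1 the lowest of all 14 arrays. Its C57Bl/6J change was -0.81 ± 0.45 (adjusted p = 0.412) with that array and -0.25 ± 0.26 (adjusted p = 0.736) without it. In C57Bl/6N it read 6.92, 6.64, 6.75 and 6.89 under AngII and 5.85, 6.86 and 7.17 in sham. The low sham value was that of sham 1, and the C57Bl/6N change was -0.21 without it. Cox6b1 and its testis form Cox6b2 changed by -0.04 and -0.05 in C57Bl/6N. Without sham 1, which was 0.75 below the other sham arrays for Cox6b1, they changed by -0.29 (adjusted p = 0.0672) and -0.11. Cox6b2 was dim, and on 8 of 14 arrays its signal reached the lowest signal of any detected 1-probe row, a stricter mark than its own detection p. Of the 19 members with a median deposited signal of 20000 or more, 0 were called in C57Bl/6N. These rows lie near the top of the range, and Atp5g3 was the brightest row of all on some arrays. Whether changes are compressed there was not tested, so the lack of calls does not show steady levels.

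**Figure D4:**
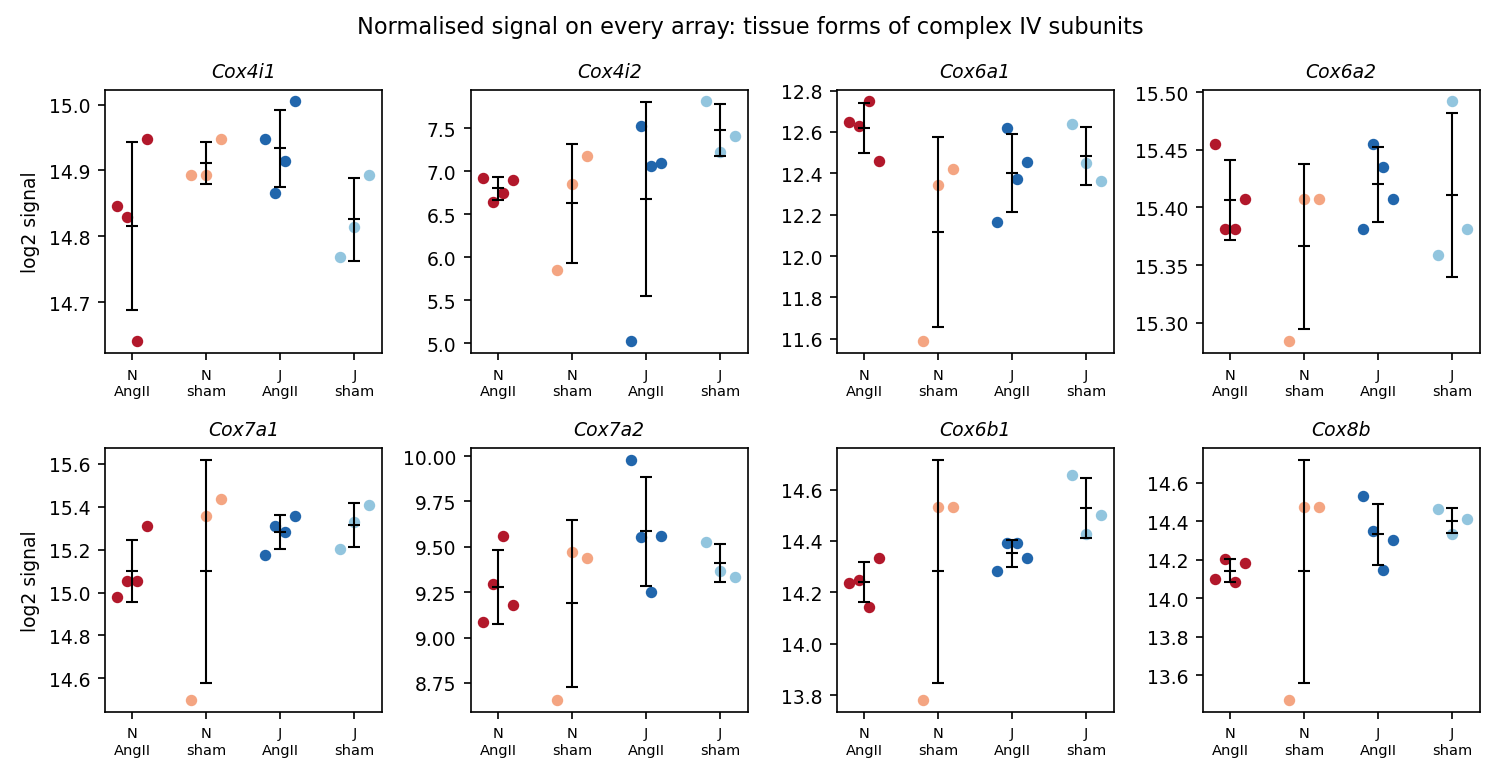
Log2 signal (y axis) on each array for complex IV subunits with more than 1 tissue form, by group (x axis: N is C57Bl/6N, J is C57Bl/6J), with bars for mean and SD (n = 4 AngII, n = 3 sham). C57Bl/6N sham 1 is the low point of its group for Cox4i2, Cox6a1, Cox6a2, Cox7a1, Cox7a2, Cox6b1 and Cox8b, and C57Bl/6J AngII 1 is the lowest point of all for Cox4i2.

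Complex V had 1 call, lower in C57Bl/6N, against 7.92% of all rows. Atp5s, a coupling factor of the ATP synthase, read 9.43, 9.47, 9.50 and 9.59 under AngII in C57Bl/6N and 10.01, 9.86 and 9.87 in sham. The groups lay clear of each other. Atp5s fell 1.33-fold (-0.41 ± 0.09, adjusted p = 0.00627), and the change was -0.36 without sham 1 (adjusted p = 0.0292). In C57Bl/6J it read 9.53, 9.72, 9.68 and 9.54 under AngII and 9.71, 9.69 and 9.85 in sham, with overlap and a change of -0.14.

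The complex V subunits themselves moved less. The 5 subunits of the F1 head, where ATP is made, had a median of -0.17 in C57Bl/6N, from -0.37 for the alpha subunit Atp5a1 (adjusted p = 0.2) to 0.02 for Atp5e. The catalytic beta subunit Atp5b changed by -0.11. The 8 subunits of the stalk and membrane part had a median of 0.00, from -0.28 for Atp5f1 (adjusted p = 0.079) to 0.10 for Atp5j2, and the proton-carrying ring subunits Atp5g2 and Atp5g3 changed by 0.02 and -0.03. None of these 13 was called. Without sham 1 the medians were -0.21 for the head and -0.18 for the stalk and membrane part, Atp5a1 and Atp5f1 had -0.26 and -0.21, the direction turned for Atp5e (-0.39), Atp5g2 (-0.23) and Atp5j2 (-0.0091), and none was called. Atp5sl changed by -0.38 (adjusted p = 0.0961), and by -0.30 without sham 1. Atp5f1 (adjusted p = 0.0442) and Atp5sl (adjusted p = 0.0319) were called lower once C57Bl/6J AngII 1 was left out.

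In C57Bl/6J, 0 of the 74 members were called (limma), and 1, Ndufa9, had an unadjusted p under 0.05. Over all rows 1.01% were called higher, 0.372% lower and 1.38% in either direction, and 15.3% had an unadjusted p under 0.05. The members had a median change of -0.07, with 49 of 74 below 0, against -0.01 for all rows. Medians by complex were -0.07 for complex I, -0.08 for complex III, -0.02 for complex IV and -0.11 for complex V. The 6 core subunits of complex I were all below 0, Ndufv1 by the least (-0.02). With AngII 1 left out there were again 0 calls (limma), against 0.989% of all rows higher, 0.276% lower and 1.26% in either direction, while 1 member had an unadjusted p under 0.05, the median was -0.05, and Ndufa9 had -0.16 (unadjusted p = 0.0827).

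Members whose groups did not overlap were also counted. In C57Bl/6N, 15 members had every AngII array below every sham array and 3 had every AngII array above, against 15.5% and 12.6% of all rows. Without sham 1 there were 45 wholly below and 3 above, against 21% and 16.6% of all rows. That array was singled out by its low values in the members, which by itself raises their count below. A group with fewer arrays is also separated more easily, and the shares over all rows rose as well. In C57Bl/6J, 8 members lay wholly below and 1 wholly above, against 9.19% and 7.94% of all rows, and without AngII 1 these counts were 10 and 1, against 12.9% and 11.4%. With all arrays, Ndufa9 was wholly lower and Cox19 wholly higher under AngII in both substrains.

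The test of the difference itself, the C57Bl/6N change minus the C57Bl/6J change, called 0 of 74 members (limma), and 0.0106% of all rows. At an unadjusted p under 0.05 there were 6 members, where 17.5% of all rows reached that mark. The smallest unadjusted p was that of Cox10, whose change was 0.41 further down in C57Bl/6N (-0.41 ± 0.15, 95% interval -0.74 to -0.08, unadjusted p = 0.017, adjusted p = 0.212). Ndufs8 followed (-0.30 ± 0.12, 95% interval -0.57 to -0.04, adjusted p = 0.236). The members had a median difference of -0.06 with 43 of 74 below 0, and without C57Bl/6N sham 1 one of -0.15 with 66 of 74 below 0, while all rows had -0.02 both times. Without that array 0 members were called (limma, 0.0106% of all rows) and 3 had an unadjusted p under 0.05, where Cox10 had -0.30 (unadjusted p = 0.051) and Ndufs8 -0.31 (unadjusted p = 0.0329). Leaving out C57Bl/6J AngII 1 gave a median of -0.02, with 40 below 0, 0 called (limma) and 6 at an unadjusted p under 0.05. Without C57Bl/6N AngII 4 the median was -0.06, with 48 below 0 and 10 at an unadjusted p under 0.05. Then 0 members were called (limma), against 4.4% of all rows. A call in C57Bl/6N beside none in C57Bl/6J was therefore not shown to be a difference between the substrains for any member.

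With the responses of both substrains averaged, 8 members were called lower and 1 higher, against 7.47% and 8.31% of all rows and 15.8% in either direction. At an unadjusted p under 0.05 there were 22 members, where 29.8% of all rows reached that mark. Among the lower ones were Ndufs8, Ndufs3, Ndufa10, Ndufa9, Uqcrc1, Cox10 and Atp5s, and the higher one was Cox19. Cox19 had an average change of 0.42 (adjusted p = 0.00876). Ndufs3, not called in either substrain alone, had -0.21 (adjusted p = 0.0382). It read 13.29, 13.39, 13.25 and 13.59 under AngII in C57Bl/6N against 13.65, 13.57 and 13.70 in sham, and 13.53, 13.51, 13.57 and 13.60 under AngII in C57Bl/6J against 13.69, 13.77 and 13.69 in sham. The groups overlapped in C57Bl/6N, where 1 AngII array lay above 1 sham array, and not in C57Bl/6J. Without C57Bl/6N sham 1 the averaged response had 7 members lower and 1 higher, against 5.87% and 7.07% of all rows and 12.9% in either direction. Then Cox6b1 (-0.23, adjusted p = 0.0274) and Ndufa7 (-0.20, adjusted p = 0.0373) were called lower, and Ndufs3, Ndufa10 and Uqcrc1 were not.

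Between sham-operated substrains, 0 of 74 members were called (limma), and 1, Ndufv1, had an unadjusted p under 0.05. Over all rows 0.0213% were called and 7.6% had an unadjusted p under 0.05. C57Bl/6N minus C57Bl/6J had a median of -0.11 over the members with 55 below 0, and of 0.02 with 29 below 0 once C57Bl/6N sham 1 was left out. In sham, 2 members lay wholly lower in C57Bl/6N and 4 wholly higher, against 7.61% and 8.24% of all rows, and without C57Bl/6N sham 1 these were 7 and 11, against 12.8% and 12.6%. Among AngII-treated animals the members lay lower in C57Bl/6N: 64 of 74 were below 0, the median was -0.15, and that of all rows was -0.01. Of complex I, 33 of 34 members were below 0, with a median of -0.18. Sham 1 takes no part in these AngII values, which share the C57Bl/6N AngII arrays with the response above. Without C57Bl/6J AngII 1 the median was -0.17, with 65 of 74 below 0. Cell markers differed in the same comparison. All 11 macrophage and monocyte markers were above 0 in C57Bl/6N, 5 of them called (median 0.56), 3 of 4 markers of proliferating cells and 3 of 7 fibroblast markers were called higher, and 1 of 11 cardiomyocyte markers was called lower. The shares over all rows were 5.48% higher and 3.84% lower. The 3 atrial markers were below 0, with a median of -1.28 and 1 called. Markers of proliferating cells include rows dim in sham that may pass the detection filter through AngII arrays alone, so their count is a description. The part of these cells in the members' difference was not tested.

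Of the 74, 1 was called between the substrains under AngII, and it was lower in C57Bl/6N, against 3.84% of all rows lower, 5.48% higher and 9.32% in either direction. At an unadjusted p under 0.05 there were 15 members, where 25.9% of all rows reached that mark. The member called was Ndufaf1, which read 10.19, 10.41, 10.28 and 10.63 in C57Bl/6N and 10.82, 10.58, 10.72 and 10.98 in C57Bl/6J under AngII. The highest C57Bl/6N array lay above the lowest C57Bl/6J array, so the groups overlapped. Ndufaf1 was 1.32-fold lower in C57Bl/6N (-0.40 ± 0.11, adjusted p = 0.0361), and the call was lost on leaving out any of the AngII arrays other than C57Bl/6J AngII 2 and C57Bl/6N AngII 4. Wholly lower in C57Bl/6N under AngII were 11 members, 8 of them in complex I, and 0 were wholly higher, against 7.26% and 7.79% of all rows. Without C57Bl/6J AngII 1, 21 were wholly lower and 0 higher, against 11.7% and 10.8%. The count called was then 0 (limma), against 3.47% of all rows lower, 4.59% higher and 8.06% in either direction, and 11 had an unadjusted p under 0.05. Without C57Bl/6N sham 1, 3 were called lower and 0 higher, against 4.67% and 6.32% of all rows and 11% in either direction, Ndufaf1 and Ndufb10 (-0.51, adjusted p = 0.0439) among them.

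Other genes of oxidative metabolism were set beside the members, from lists drawn up by function. In C57Bl/6N, 4 of 9 genes of complex II and the electron carriers were lower and 0 higher (median -0.37), among them Etfdh, which feeds electrons from fatty acid oxidation into ubiquinone (-0.60, adjusted p = 0.0035), and Coq9, which helps make ubiquinone (-0.51, adjusted p = 0.0112). This list also holds Cyc1, a subunit of complex III that the naming rule does not reach. Cyc1 read 13.27, 13.38, 13.09 and 13.44 under AngII in C57Bl/6N and 13.59, 13.60 and 13.47 in sham. Of 14 genes of fatty acid oxidation, a list in which Etfdh is counted again, 12 were lower (median -0.56), and of 13 genes of the TCA cycle 7 (median -0.35). Of 19 assembly factors outside the naming rule 5 were lower (median -0.17), of 13 regulators of mitochondrial biogenesis 3 (median -0.28) and of 7 genes of ATP export and inhibition 1 (median -0.15), and 0 were higher in any of these lists. The shares over all rows were 7.92% lower and 9.45% higher.

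Ribosomal proteins were counted by compartment. In C57Bl/6N, 6 of 66 mitochondrial ribosomal proteins were lower and 1 higher (median -0.10), while 29 of 52 cytosolic ribosomal proteins were higher and 1 lower (median 0.45). The shares over all rows were 7.92% lower and 9.45% higher, so the mitochondrial ones called lower were near the background share. Without sham 1, the counts lower were 3 of 9 for complex II and carriers, 7 of 14 for fatty acid oxidation, 1 of 13 for the TCA cycle and 2 of 19 for the assembly factors, with medians of -0.39, -0.47, -0.28 and -0.16. Lower were also 2 of 13 biogenesis regulators, 0 of 7 genes of ATP export and inhibition and 6 of 66 mitochondrial ribosomal proteins, of which 0 were higher. All rows then had 4.13% called lower and 6.12% higher. Etfdh kept its call (-0.50, adjusted p = 0.0206), Coq9 lost it (-0.44, adjusted p = 0.0552), and cytosolic ribosomal proteins had 7 higher and a median of 0.29. Another 9 subunits and factors that the file holds under other names, chosen after its names were seen, had 0 called and a median of 0.00, and of -0.21 without sham 1.

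In C57Bl/6J, 0 genes of these lists were called except 1 of 13 in the TCA cycle, which was lower, and medians ran from -0.13 for fatty acid oxidation to 0.06 for cytosolic ribosomal proteins. All rows there had 0.372% called lower and 1.01% higher. Ucp3, an uncoupling protein of muscle mitochondria, fell by 1.06 in C57Bl/6N (adjusted p = 0.027) and changed by -1.18 in C57Bl/6J (adjusted p = 0.0739). The C57Bl/6N call was lost without sham 1 (-0.89, adjusted p = 0.13), and the C57Bl/6J change was -0.93 without C57Bl/6J AngII 1 (adjusted p = 0.132).

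**Figure D5:**
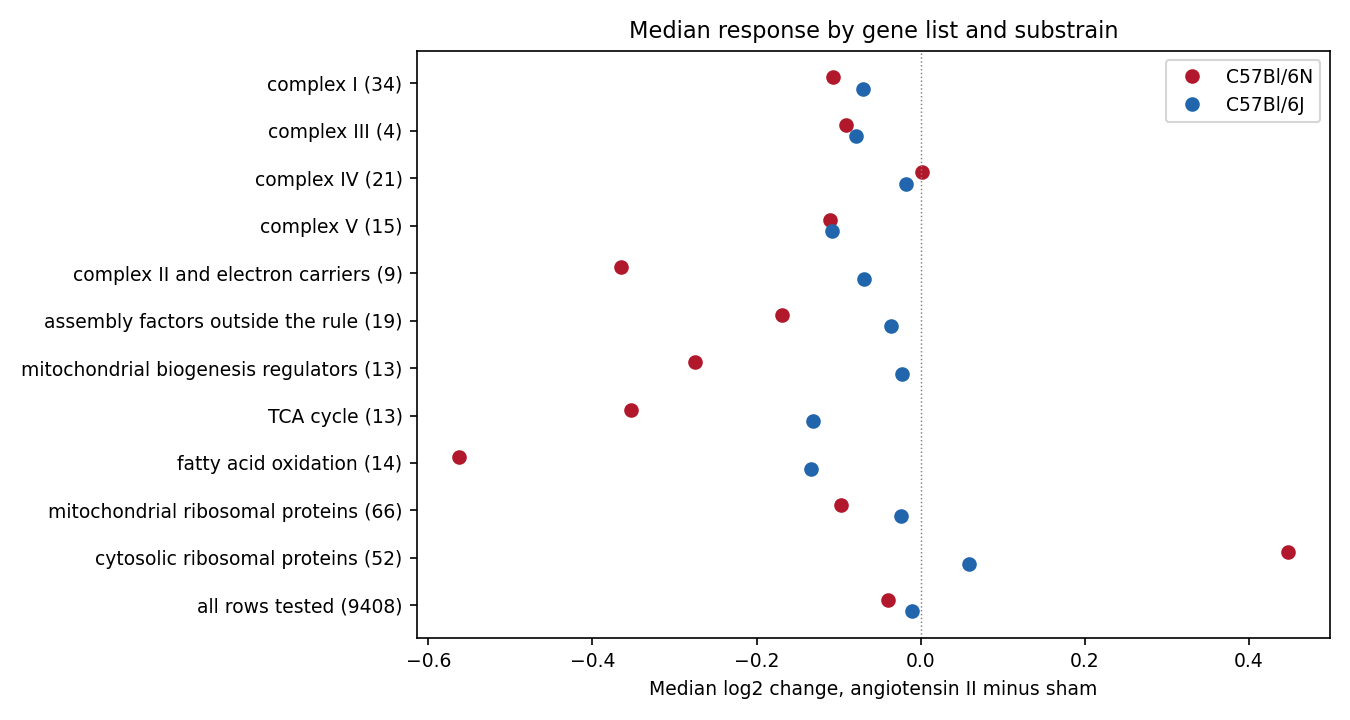
Median change under angiotensin II (log2, AngII minus sham, x axis) of the members of each complex, of other gene lists and of all rows tested (y axis, number of genes in brackets), with red points for C57Bl/6N and blue points for C57Bl/6J. In C57Bl/6N, fatty acid oxidation lies lowest (-0.56) and cytosolic ribosomal proteins highest (0.45), and the 4 complexes lie between -0.11 and 0.00.

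Markers of other cells moved with treatment in C57Bl/6N. Of 11 macrophage and monocyte markers 10 were higher, with a summed signal of 10470 to 22880 under AngII and 7350 to 9933 in sham, and of 7 fibroblast markers 4 were higher, with sums of 14603 to 17337 and 11683 to 14669. All 4 markers of proliferating cells were higher, with sums of 523 to 1387 and 150 to 204. Some of them were dim in sham. Ccnb1 read 6.03, 5.95, 6.48 and 5.09 under AngII and 4.70, 4.55 and 4.63 in sham, and Birc5 read 4.98, 5.25 and 5.19 in sham. Such rows may pass the detection filter through AngII arrays alone, so counts of this list are a description in every comparison. Of 11 cardiomyocyte markers 1 was lower (median -0.21), and of 6 endothelial markers 1. The shares over all rows were 9.45% higher and 7.92% lower. Of 3 smooth muscle markers 2 were higher, with sums of 4190 to 5968 and 2837 to 3492. The 3 atrial markers had sums of 4793 to 6682 under AngII and 2465 to 11606 in sham, and 0 were called. Without sham 1 the counts higher were 7 of 11 for macrophages and monocytes, 3 of 7 for fibroblasts, 1 of 3 for smooth muscle and 4 of 4 for proliferating cells, and the counts lower were 1 of 11 for cardiomyocytes, 0 of 6 for endothelium and 2 of 3 for atrial markers (median -0.95). All rows then had 6.12% called higher and 4.13% lower.

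In C57Bl/6J, 0 of the 11 macrophage and of the 7 fibroblast markers were called, with sums of 8608 to 10665 under AngII and 9030 to 10366 in sham for macrophages and monocytes. Of the 3 smooth muscle markers, Acta2, smooth muscle actin, was higher (0.92, adjusted p = 0.00797), and the list had a median of 0.63, with sums of 5723 to 7863 under AngII and 3421 to 3777 in sham. The atrial markers had a median of 0.64 with 0 called. Of 4 markers of proliferating cells 1 was higher, and 3 were without C57Bl/6J AngII 1. All rows had 1.01% called higher with that array and 0.989% without it. Of the listed genes in the table, 1 of 12 macrophage and monocyte, 2 of 9 fibroblast and 1 of 5 proliferation markers did not pass the detection filter. It was passed by 6 of 7 endothelial, 3 of 4 smooth muscle and 3 of 4 atrial markers. The part of these cells in the members' changes was not tested.

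Promoter sequence, 250 bases before and 50 after each gene start, was taken from RefSeq on the GRCm38.p6 assembly for the 62 of 74 members that its table held. Motifs of factors known to act on respiratory genes were searched on both strands. The NRF1 motif was in 12 of the 62 (19.4%), against 11.2% of the 7136 tested genes with a promoter, and the YY1 motif AANATGGCG was in 12 (19.4%) against 5.91%. The ETS motif CCGGAAG, bound by GABP among others, was in 15 (24.2%) against 19.7%, and the ERR motif AAGGTCA in 5 (8.06%) against 4.02%. The GC box GGGCGG was in 29 (46.8%) against 68.5%. Of the 8 members lower in C57Bl/6N that had a promoter, 1 held the NRF1 motif, 2 the ETS motif, 2 the YY1 motif, 0 the ERR motif and 4 a GC box. Matches of different motifs were counted separately, also where they overlapped, and a match is a description of the window.

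The promoters of 3 members that fell and of Cox19, which rose, are shown to set their motif content side by side, 5′ to 3′ on the gene's own strand, with every motif match in capitals. Ndufs8 lies at chr19:3912725-3913024 on the minus strand and holds 1 ETS match on its opposite strand. Uqcrc1 lies at chr9:108936398-108936697 on the plus strand and holds 2 NRF1 matches. Cox10, at chr11:64079423-64079722 on the minus strand, holds 1 ETS match, 1 YY1 match and 2 GC boxes. Cox19, at chr5:139345117-139345416 on the minus strand, holds 1 GC box and none of the other motifs searched.
Ndufs8: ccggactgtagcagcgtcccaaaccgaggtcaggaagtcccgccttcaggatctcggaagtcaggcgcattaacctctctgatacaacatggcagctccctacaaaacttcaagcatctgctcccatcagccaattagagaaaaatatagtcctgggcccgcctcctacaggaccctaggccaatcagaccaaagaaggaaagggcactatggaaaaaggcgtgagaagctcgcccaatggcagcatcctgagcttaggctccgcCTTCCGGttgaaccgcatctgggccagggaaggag
Uqcrc1: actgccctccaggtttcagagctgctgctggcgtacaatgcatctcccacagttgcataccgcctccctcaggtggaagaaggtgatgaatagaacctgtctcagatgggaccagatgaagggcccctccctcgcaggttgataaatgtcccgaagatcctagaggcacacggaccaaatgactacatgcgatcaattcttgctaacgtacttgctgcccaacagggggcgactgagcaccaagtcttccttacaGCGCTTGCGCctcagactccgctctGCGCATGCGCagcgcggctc
Cox10: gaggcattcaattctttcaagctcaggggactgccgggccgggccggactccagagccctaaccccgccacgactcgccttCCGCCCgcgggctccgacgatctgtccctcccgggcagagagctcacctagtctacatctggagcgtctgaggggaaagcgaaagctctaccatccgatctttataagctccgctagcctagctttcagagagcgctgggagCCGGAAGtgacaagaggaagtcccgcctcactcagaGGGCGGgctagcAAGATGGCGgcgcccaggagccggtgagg
Cox19: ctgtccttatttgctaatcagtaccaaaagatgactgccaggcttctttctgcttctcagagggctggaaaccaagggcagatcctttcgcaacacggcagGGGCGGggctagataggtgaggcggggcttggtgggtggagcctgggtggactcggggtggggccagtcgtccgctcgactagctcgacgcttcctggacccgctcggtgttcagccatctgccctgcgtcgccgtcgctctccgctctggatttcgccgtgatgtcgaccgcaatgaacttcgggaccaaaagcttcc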

How the data were processed

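RNA of left ventricles from 14 samples was labelled with biotin and hybridised to Illumina arrays, per the labels' protocols. The deposited intensity of each gene row is linear and, judging from its values, neither background-subtracted nor normalised, and each carries a deposited detection p-value. A second deposited table of intensity matches a quantile normalisation of the first. No source used here names the array model or scanner software.

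Background means and SDs were inferred from detection p-values lying within 0.002 of a grid of 798 steps (14215 rows; rows off the grid, taken to hold several probes, include 4 members). Normal-exponential correction, an offset of 16, quantile normalisation and log2 followed, in limma 3.58.1 under R 4.3.3. A linear model with 1 mean per group was fitted to the 14 arrays and tested over 9408 rows; replicate numbers only count samples within a group, without pairing them, and the labels name no batch. A change of a dim gene is understated by the offset. The steps were tested on simulated data.

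The members, lists and tests were chosen with earlier results of these data known. Genes named with array values were those called in any contrast, the 2 lowest and the highest change of each complex, tissue forms of a subunit, and the 2 smallest p-values of the difference; 1 member that is included in the counts is not reported here by name. Alternatives tried were no background correction, the deposited normalised table, neqc, median scaling, an offset of 50, other filters, a trended variance, fits on the compared groups, and leaving out each array. Precision is limited by how few arrays there were.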

Additional observations from a re-analysis of the deposited data

Results flagged for a closer look

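Atp5g3, a subunit of the proton-carrying ring of the ATP synthase, read 15.6 on the array C57Bl/6J AngII 1, while the other 3 AngII arrays of that substrain read 15.36 to 15.38, which puts this array outside the spread of its group by Dixon's test. Atp5g3 was the brightest row of that array, and quantile normalisation gives the brightest row of every array the same top value. It had that value on C57Bl/6N AngII 1 and C57Bl/6N sham 2 as well. Cox19 read 11.06 on C57Bl/6J AngII 3, with the other 3 between 11.21 and 11.23. In all, 68 groups of 4 arrays were tested in this way, over the 30 members chosen to be named and the medians of the 4 complexes, and 2 stood out; chance alone marks about 1 group in 20.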

How the results depend on the processing

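No paired analysis was possible because the replicate numbers follow the order of the samples and the labels pair no arrays. The count of 11 members called in C57Bl/6N was 5 with median scaling, where the share of all rows called was 13.7%, and 6 to 16 when single arrays were left out, the 16 being without C57Bl/6J AngII 1. It was 6 without C57Bl/6N AngII 1 or AngII 3, and 7 without C57Bl/6N AngII 2 or sham 1. Under AngII, the count of 1 between substrains was 2 with no background correction, the authors' value table, neqc or an offset of 50, 0 with only the compared groups in the fit, and 0 to 4 with single arrays left out, the 4 being without C57Bl/6N AngII 4 and 3 without C57Bl/6N sham 1. The averaged response gave 6 to 11. In C57Bl/6J, in the difference of responses and between sham groups the count was 0 throughout.

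With single arrays left out, medians in C57Bl/6N ran from -0.259 to -0.0112 for complex I, from -0.164 to -0.0655 for complex III, from -0.142 to 0.0838 for complex IV and from -0.208 to 0.0144 for complex V, the lowest being without sham 1. In C57Bl/6J they ran from -0.0898 to -0.0381, -0.0916 to -0.0423, -0.041 to 0.0036 and -0.117 to -0.0384 in that order. The cause of these shifts was not tested. Cox10 and Atp5s kept their C57Bl/6N call in all 10 settings and all 14 fits that left out an array, while Cox7a2l and Cox4nb kept it in 3 of those 14, Ndufa9 in 7, Ndufv1 in 10, Uqcrc1 in 11, and Ndufa10 and Cox19 in 13. Ndufs8 kept it in 9 settings and all 14 fits. No direction of a called member turned. Rows at the dim end limit what can be seen: 5 members had a median signal under 200, and 0 of these were called.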
